A study of Caenorhabditis elegans with 2 samples.

Results

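The neuropeptide genes of Caenorhabditis elegans were examined for sites of DSC-1, a paired-like homeodomain protein. The set was every protein-coding gene of the WBcel235 annotation whose symbol starts with flp-, nlp- or pdf- and a number, together with ntc-1. It held 105 of the 19973 protein-coding genes, namely 31 flp genes, 71 nlp genes, 2 pdf genes and ntc-1. The rule for membership reads gene symbols and no peak values, although the set was proposed with earlier results of these data known. The chromatin came from whole hermaphrodites of strain OP522 (unc-119(tm4063) III; wgIs522), a transgenic line that makes DSC-1 with a C-terminal GFP-FLAG tag, and an anti-GFP antibody was used. The larvae were L1 animals 6 hours after synchronization by starvation following bleaching, and there was 1 group with 2 biological replicates, so no condition could be compared with another. All larvae carried the same transgene and the same unc-119 allele. The sources used here do not say which cells make the tagged protein, and whole larvae mix all tissues, so a site cannot be placed in a neuron. The control immunoprecipitation was not analysed here, and which sites reflect DSC-1 itself was not tested.

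Neuropeptides are short peptides cut from a longer precursor protein, often amidated at their carboxy end, and released from dense-core vesicles to act on G-protein-coupled receptors. In the worm the flp genes encode peptides that resemble FMRFamide, the pdf genes encode peptides related to insect pigment-dispersing factor, ntc-1 encodes a peptide of the vasopressin and oxytocin family, and the nlp genes encode the remaining, diverse peptides. They are best known from neurons, although some are made in the intestine or the epidermis. A peptide of particular interest here is that of nlp-40, which the intestine releases to set off the defecation motor program through the receptor AEX-2, because dsc-1 is itself known for its role in that program.

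Binding was read from the authors' list of 6283 peaks that passed their test of reproducibility between replicates (the irreproducible discovery rate, IDR). Each peak has a summit and a signal, which ran from 78.4 to 2260 in this list, from 11.6 to 866 among the 26482 peaks of replicate 1 and from 11.4 to 1429 among the 30000 peaks of replicate 2. The scale of the signal is not stated, so ranks within a list are given beside it, rank 1 being the strongest. The number of reads behind each list is unknown. Distances run from the gene start, taken as the outermost annotated start. The promoter window reached from 1000 bp upstream to 200 bp downstream of it, and the zone beyond it, up to 5000 bp upstream, was counted apart as the upstream zone.

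Few neuropeptide genes had a summit close to their start. A promoter summit was present at 9 of 105 genes, or 8.57% (exact Clopper-Pearson 95% interval 3.99 to 15.6), where all protein-coding genes gave 14.7%. The 9 genes were nlp-47, nlp-3, nlp-1, ntc-1, nlp-4, nlp-41, flp-6, nlp-59 and flp-23. In the upstream zone 24 genes had a summit, or 22.9% (15.2 to 32.1), against 19.4% of all protein-coding genes. Over both windows the count was 28 genes, or 26.7% (18.5 to 36.2), against 29.6%. The remaining 77 had no summit in either window. The intervals cover counting error only, genes are not replicates, and no test was made of these shares.

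The stretches of genome under the leading promoter summits are shown because they are the sites nearest to the start of a peptide gene. Each reaches 50 bases to either side of the summit in WBcel235 (ce11) and is written on the strand of the gene, 5′ to 3′, with the 11 bases centred on the summit in capitals. They are read from the RefSeq copy of the genome. They come from chrIV:5290008-5290108 and chrIV:5290639-5290739 on the plus strand for nlp-47, chrX:13178557-13178657 on the minus strand for nlp-3, chrX:3726598-3726698 on the plus strand for nlp-1 and chrX:4865879-4865979 on the plus strand for ntc-1. The last line, from chrII:13233837-13233937 on the plus strand, is the strongest site of the upstream zone that lay outside protein-coding genes, at flp-16.
nlp-47, 789 bp upstream: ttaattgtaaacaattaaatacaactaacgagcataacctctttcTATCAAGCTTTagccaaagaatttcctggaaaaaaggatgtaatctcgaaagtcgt
nlp-47, 158 bp upstream: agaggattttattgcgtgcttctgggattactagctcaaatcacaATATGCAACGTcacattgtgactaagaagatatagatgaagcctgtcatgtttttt
nlp-3, 160 bp upstream: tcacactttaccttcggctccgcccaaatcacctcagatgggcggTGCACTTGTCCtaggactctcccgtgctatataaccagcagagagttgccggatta
nlp-1, 926 bp upstream: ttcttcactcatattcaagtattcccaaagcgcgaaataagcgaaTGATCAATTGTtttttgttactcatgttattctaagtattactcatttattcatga
ntc-1, 169 bp upstream: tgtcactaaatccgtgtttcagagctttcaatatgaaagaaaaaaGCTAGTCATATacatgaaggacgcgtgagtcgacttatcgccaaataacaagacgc
flp-16, 1419 bp upstream: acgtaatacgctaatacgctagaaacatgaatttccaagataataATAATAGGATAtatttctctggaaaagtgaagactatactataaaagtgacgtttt
The stretches differ in base composition, with a GC content of 53.5% at nlp-3 and 39.6% at ntc-1, against 28.7% at flp-16.

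The strongest promoter site belonged to nlp-47 (chromosome IV, 5290847 to 5293654, plus strand), which encodes a peptide of the gonadotropin-releasing hormone type and is a ligand of the receptor GNRR-1. Its peak at 5289933 to 5290364 had a signal of 384 at rank 875 in the IDR list, with a signal of 168 at rank 817 in replicate 1 and of 229 at rank 853 in replicate 2. The summit was at the same place, 789 bp upstream, in the IDR list and in replicate 2, and 764 bp upstream in replicate 1. A further summit lay 158 bp upstream, with a signal of 206 in the IDR list (rank 2386), 110 in replicate 1 (rank 1744) and 92.6 in replicate 2 (rank 3243). The gene also had summits 1745 bp and 3451 bp upstream, at ranks 3566 and 2449. The next protein-coding gene upstream of nlp-47 was 12994 bp away, so all 4 summits fell in its own intergenic stretch.

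A pair of peptide genes of sensory and motor circuits on X came next. The gene nlp-3 (13177856 to 13178447, minus strand), whose peptides are released from the HSN motor neurons and promote egg laying, had a summit 160 bp upstream with a signal of 333 at rank 1130. Its signal was 146 in replicate 1 (rank 1078) and 183 in replicate 2 (rank 1259). The gene nlp-1 (3727574 to 3728446, plus strand), whose peptide is released from the AWC olfactory neurons and acts in olfactory adaptation through NPR-11, had summits 926 bp and 727 bp upstream. The first had a signal of 223 (rank 2138), with rank 1600 in replicate 1 and rank 2707 in replicate 2, and the other a signal of 91 (rank 5538), with 35.5 in replicate 1 (rank 6205) and 53.7 in replicate 2 (rank 5662). Both genes had stronger sites further away. At nlp-1 the strongest was 1938 bp upstream at rank 896, with a signal of 379 in the IDR list, 153 in replicate 1 and 209 in replicate 2. A summit 1738 bp upstream (rank 3646) was listed within the same peak interval.

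At nlp-3 the strongest sites lay beyond its own intergenic stretch. Summits 3768 bp and 3970 bp upstream, at ranks 634 and 1038, shared a single peak interval and fell in the 3′ UTR of the neighbour cwp-5, although the start of nlp-3 was the nearest protein-coding start. A weaker site was between the genes, 1915 bp upstream at rank 3414.

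The nematocin gene ntc-1 (X, 4866098 to 4866690, plus strand), which acts in gustatory learning and in male mating, had a single summit 169 bp upstream and none in the upstream zone. Its signal was 184 at rank 2712, with 77.8 at rank 2751 in replicate 1 and 109 at rank 2667 in replicate 2. Its place in the order was thus almost the same in the 3 lists, although the summit itself lay 185 bp upstream in replicate 1 and 221 bp upstream in replicate 2.

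The other 5 promoter sites were weaker. The summit of nlp-4 (rank 3396) was 55 bp upstream of its start and also in the promoter window of the divergent neighbour exos-3, a subunit gene of the RNA exosome, so it cannot be given to either gene alone. It was the sole promoter summit of the set shared with another gene. Those of nlp-41 (383 bp, rank 3885), flp-6 (522 bp, rank 4058) and nlp-59 (938 bp, rank 4888) lay outside protein-coding genes. The signal of flp-6, whose peptides are made in sensory neurons, was 127 in the IDR list, with 37 in replicate 1 (rank 5953) and 88.7 in replicate 2 (rank 3396).

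The site at flp-23 (355 bp upstream, rank 5516) stood apart in that its summit fell inside a tRNA gene, WBGene00023002. Its signal of 91.3 in the IDR list was accompanied by 61.9 at rank 3546 in replicate 1 and 37.5 at rank 7907 in replicate 2. It was thus the single promoter site of the set outside the 6283 strongest peaks of a replicate. Without it, 8 genes had a promoter summit. How far the tRNA gene accounts for this site was not tested.

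**Figure D1:**
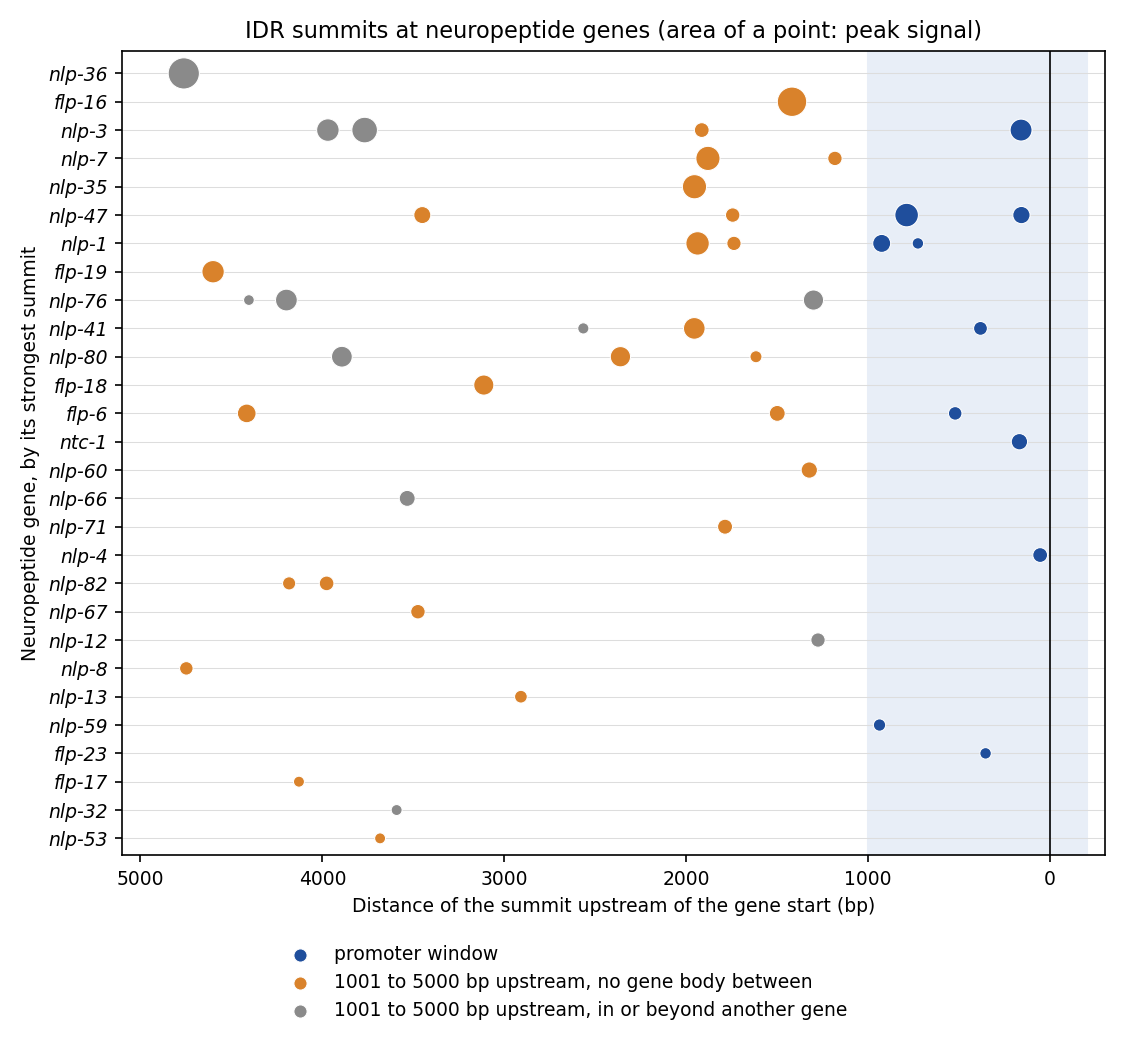
Positions of the 47 IDR summits at the 28 neuropeptide genes that had any (rows, from the strongest at the top). The x axis is the distance upstream of the gene start in bp, the shaded band is the promoter window, and the area of a point is proportional to the authors' signal. The 11 promoter summits (blue) are fewer than the 25 free upstream summits (orange), and 11 further summits (grey) lie in or beyond another gene.

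The 11 promoter summits and the 36 summits further upstream made 47 in all, on 45 peak intervals. Summits in both windows were found at 5 genes, a promoter summit alone at 4 genes, and an upstream summit alone at 19 genes. By strength, 2 of the 47 were among the 500 strongest of all 6283 IDR peaks, and 7 were among the 1000 strongest. These counts were not tested. Both of the first kind lay upstream of the promoter window, where 36 of the 47 summits lay. Of these, the site at nlp-36 was in an intron of bre-3. The best promoter summit of a neuropeptide gene had a median rank of 3396 over 9 genes, against 2654 over the 2944 protein-coding genes with a promoter summit. The best upstream summit had a median rank of 2177 over 24 genes, against 2649 over 3884 genes. The ceiling of 4.07 for the authors' −log10 q-value was reached by 43 of the 47 summits and by 5914 of all IDR peaks, so the q-value did not separate the sites.

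The IDR list keeps peaks that were reproducible between these replicates, so agreement of the replicates at its summits was partly fixed by that choice. Within it, most sites were among the stronger peaks of both replicates, which does not make their ranks alike. Every one of the 47 summits overlapped a peak in both replicate lists, and for 40 of them, or 85.1%, the replicate peak with the nearest summit was among the 6283 strongest in both. For all IDR peaks this share was 81.3%. Beside flp-23 the exceptions were a summit each of nlp-1, nlp-82, nlp-13, flp-17, nlp-53 and nlp-76, all between 1738 and 4404 bp upstream. At nlp-13 the site 2909 bp upstream had rank 8046 in replicate 1 and 3734 in replicate 2.

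**Figure D2:**
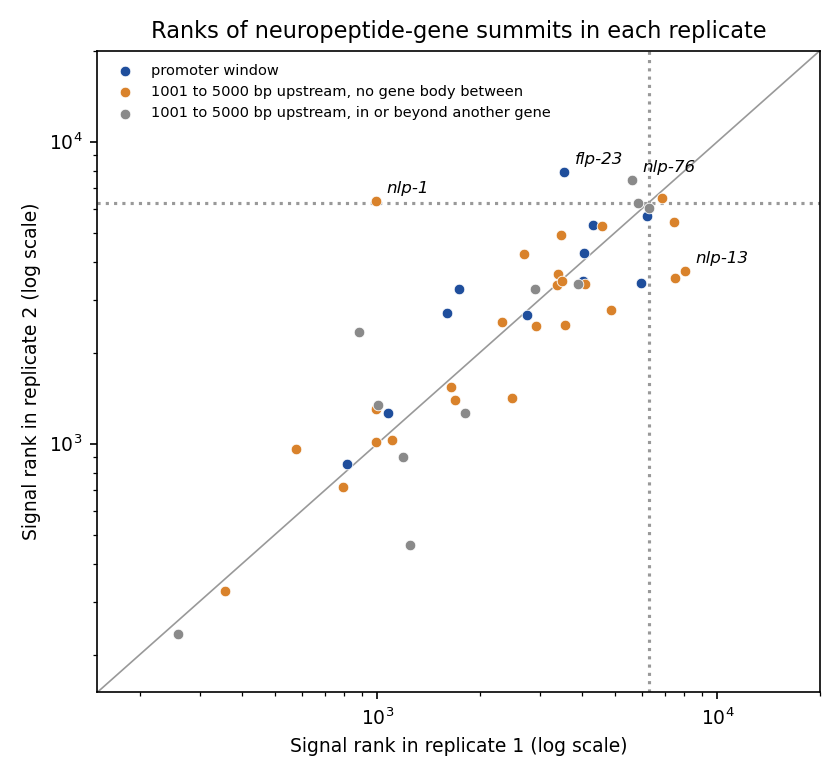
Rank of the peak at each of the 47 summits in replicate 1 (x axis) and replicate 2 (y axis), both on log scales, where a low rank is a strong peak. The solid line marks equal ranks and the dotted lines mark rank 6283. Of the 47 summits, 40 lie within both dotted lines, and flp-23, nlp-13, nlp-1 and nlp-76 are named among those that do not.

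Most upstream sites had no other protein-coding gene body between them and the peptide gene. Of the 36 upstream summits, 30 lay outside protein-coding genes, 4 in introns and 2 in a 3′ UTR of other genes. Of all 6283 IDR summits, 3987 lay outside protein-coding genes. The zone lies upstream of gene starts by definition, so these counts are not like for like. No other protein-coding gene body lay between summit and start for 25 of the 36, at 19 genes. This corresponds to 18.1% of the neuropeptide genes (11.3 to 26.8), against 7.44% of all protein-coding genes. The start of the peptide gene was the nearest protein-coding start for 23 of the 36, and 6 lay in the promoter window of another gene.

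The strongest such site was at flp-16, 1419 bp upstream, with a signal of 597 at rank 341. It had 246 in replicate 1 (rank 357) and 359 in replicate 2 (rank 326), and its peak covered 13233721 to 13234064 on chromosome II. The next ones were nlp-7 at 1881 bp (rank 781), nlp-35 at 1955 bp (rank 782), nlp-1 (above), flp-19 at 4601 bp (rank 1062) and nlp-41 at 1956 bp (rank 1188). The last of these was only 166 bp from the start of the divergent neighbour gcy-29, a receptor-type guanylyl cyclase gene, and in its promoter window.

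Further free sites were at nlp-80 (2362 bp, rank 1482, although the start of T04C12.8 was nearer), flp-18 (3113 bp, rank 1522), flp-6 (4416 bp, rank 1905), nlp-47 and nlp-60 (1324 bp, rank 2722). The peptides of flp-18 are ligands of NPR-1, NPR-4 and NPR-5 and act in foraging and locomotion. At flp-18 the signal was 280, with 113 in replicate 1 (rank 1652) and 162 in replicate 2 (rank 1538).

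Several of the highest ranks in the zone belonged to a neighbour by position. The strongest summit counted at any neuropeptide gene, 4762 bp upstream of nlp-36 at rank 242, lay in an intron of bre-3, a glycosyltransferase gene, whose start was 1504 bp away. The site 4198 bp upstream of nlp-76 (rank 1163) was 247 bp from the start of the nuclear hormone receptor gene nhr-17, whose gene body includes the start of nlp-76. The site 3893 bp upstream of nlp-80 (rank 1380) was 148 bp from the start of T04C12.8, and that of nlp-66 (3534 bp, rank 2842) was in an intron of R08B4.3. A site 1301 bp upstream of nlp-76 (rank 1501), in an intron of nhr-17, was 24 bp from a tRNA gene. The nearest protein-coding start to this site was that of nlp-76 itself. tRNA genes lay within 100 bp of 2 of the 47 summits, or 4.26%, against 3.14% of all IDR summits.

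Neuropeptide genes have more free sequence upstream than most genes, and they are frequent on X. The distance from the start to the next upstream protein-coding gene had a median of 2914 bp (quartiles 1244 and 6422), against 936 bp (313 and 2726) for all protein-coding genes. X held 34 of the 105, or 32.4%, against 13.7%. Shares were therefore set beside those of all genes with like room. With 5 kb or more of room, 11 of 35 neuropeptide genes had a free upstream summit, or 31.4% (16.9 to 49.3), against 25.9% of 2711 genes. With 1 to 5 kb it was 8 of 47, or 17% (7.65 to 30.8), against 11.4% of 6886. The share of neuropeptide genes was above that of all genes in both classes of room, and both intervals include the value of all genes. How far room accounts for the share of the whole set was not tested. On X 7 of 34 had a free upstream summit, or 20.6% (8.7 to 37.9), against 14.5%. On autosomes it was 12 of 71, or 16.9% (9.05 to 27.7), against 6.32%, which lies below the interval. These shares by chromosome were not matched for room. They include genes with less than 1 kb of room, which cannot have a free upstream summit.

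In the promoter window the share was highest with the most room for neuropeptide genes, and with the least room for all genes. Where the next gene was closer than 1 kb, 1 of 23 neuropeptide genes had a promoter summit, or 4.35% (0.11 to 21.9), against 16.8% of all such genes. With 1 to 5 kb there were 3 of 47, or 6.38% (1.34 to 17.5), against 12.4%, and with 5 kb or more 5 of 35, or 14.3% (4.81 to 30.3), against 12.9%. Each of these intervals includes the value of all genes. On X 3 of 34 had a promoter summit, or 8.82%, against 15.9%, and on autosomes 6 of 71, or 8.45%, against 14.6%.

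**Figure D3:**
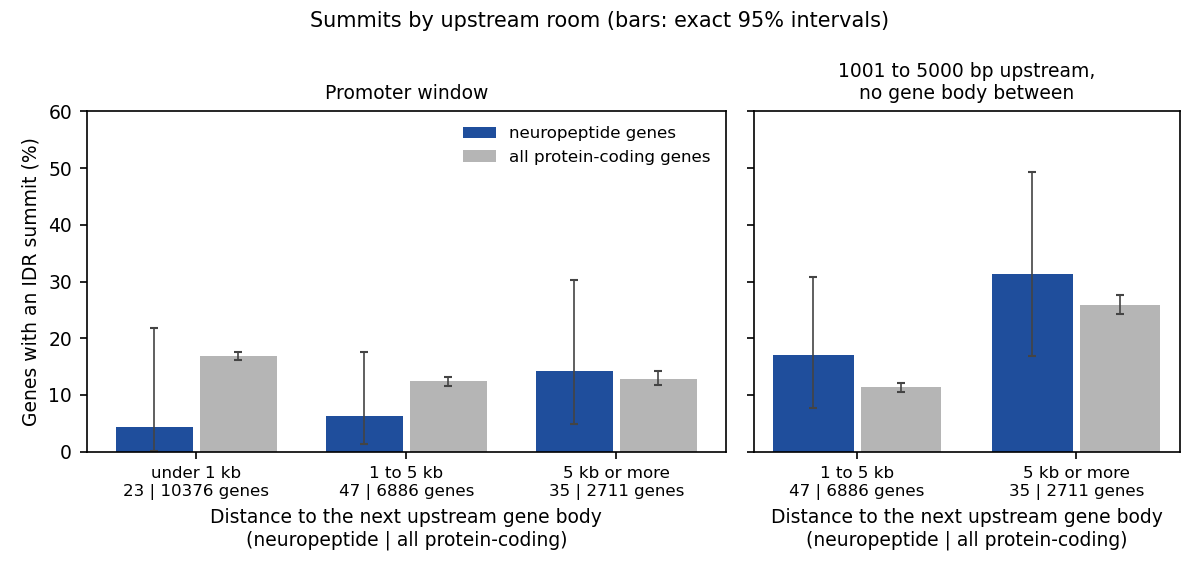
Share of genes with an IDR summit (y axis, percent) by the distance to the next upstream protein-coding gene body (x axis), for neuropeptide genes (blue) and all protein-coding genes (grey). The left panel is the promoter window and the right panel the upstream zone with no gene body between. Bars carry exact 95% intervals, and those of the neuropeptide genes are wide: with 5 kb or more, the right panel shows 31.4% against 25.9%.

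In lists without a threshold the share near starts was not below that of all genes. In the full list of replicate 1, which includes background, 41 neuropeptide genes had a promoter summit, or 39%, against 33.7% of all genes. In that of replicate 2 the count was 39, or 37.1%, against 34%, and in the pooled list 38, or 36.2%, against 33.3%. The genes just below the threshold were nlp-60 (pooled rank 6798, signal 71.5, 296 bp upstream) and flp-4 (rank 6814, signal 71.4, 966 bp), and the weakest inside it was the site of nlp-1 at 727 bp (rank 5538). At the edge of the window, nlp-1 at 926 bp and nlp-59 at 938 bp were just inside. The summit at nlp-59 was 950 bp upstream in replicate 1 and 1030 bp upstream, outside the window, in replicate 2. The gene nlp-7, with a site at 1183 bp (rank 3591), was just outside.

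Genes of known behavioural roles are given as lists of 2 to 11 genes, chosen with earlier results known, and their shares were not tested. Of all protein-coding genes, 14.7% had a promoter summit, 7.44% a free upstream summit and 29.6% a summit in either window. Of 4 genes of egg laying, 3 had a free upstream summit: nlp-3, nlp-7, which inhibits egg laying, and flp-17, whose peptides come from the BAG neurons and act on EGL-6, while flp-10 had no summit. The interval for 3 of 4 is 19.4 to 99.4%. All 4 genes have more than 1 kb of upstream room, where the share of all genes was 11.4% (1 to 5 kb) or 25.9% (5 kb or more). The list mixes both classes, nlp-3 and nlp-7 having 1 to 5 kb and flp-10 and flp-17 having more, so neither share matches it. The sites were unequal, that of flp-17 having rank 5968 at 4129 bp. Of 5 genes of sensory adaptation and learning, nlp-1 and ntc-1 had promoter summits, and nlp-9, flp-20 and flp-34 had no summit in either window. Of 6 sleep genes 1 had a site, nlp-8, 4748 bp upstream at rank 4080, and the interval of 0.421 to 64.1% includes the 29.6% of all genes. The genes flp-11, flp-13, flp-24, nlp-14 and nlp-22 had none. At flp-11, the sleep peptide gene of the RIS neuron, and at flp-13 and flp-24 the full lists held no summit either. At nlp-14 every full list held promoter summits, the strongest at rank 9076 (pooled), 8029 (replicate 1) and 16040 (replicate 2). At nlp-22 only replicate 1 held a summit, in the upstream zone.

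The flp genes had a promoter summit at 2 of 31, or 6.45% (0.791 to 21.4), and an upstream summit at 5, or 16.1% (5.45 to 33.7). The nlp genes had a promoter summit at 6 of 71, or 8.45% (3.16 to 17.5), and an upstream summit at 19, or 26.8% (16.9 to 38.6). The intervals include the 14.7% and 19.4% of all protein-coding genes, and a difference between the families was not tested. Outside the role lists, upstream summits between ranks 3312 and 6005 alone were found at nlp-71 (1787 bp), nlp-82 (3977 bp and 4183 bp), nlp-67 (3475 bp), nlp-13 and nlp-53 (3683 bp). The summit of nlp-71 was 109 bp from the start of exos-2.

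Of 6 genes of locomotion and arousal, flp-18 had the site described and nlp-12, a cholecystokinin-like gene of the stretch-sensitive DVA neuron, had a site 1276 bp upstream at rank 3617. This site was beyond the neighbour emr-1, the emerin gene, and 337 bp from its start. The interval for 2 of 6 genes is 4.33 to 77.7%, which includes the 29.6% of all protein-coding genes with a summit in either window. The other NPR-1 ligand gene, flp-21, had no summit in any list. Of 11 genes of antimicrobial-type peptides of the epidermis, nlp-24 to nlp-34, none had a promoter summit and nlp-32 alone had a site, 3592 bp upstream at rank 5976 with a gene body in between. The intervals are 0 to 28.5% for a promoter summit and 0.23 to 41.3% for either window. They include the 14.7% and 29.6% of all protein-coding genes. Several of these genes are close copies of each other, and how reads common to such copies were placed is unknown.

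Neither pdf gene nor nlp-40 had an IDR summit from 5000 bp upstream to 200 bp downstream. At pdf-1 none of the 3 full lists had a summit in either window. At pdf-2 there was a single one in replicate 1, at rank 22680 and 531 bp upstream. At nlp-40 replicate 2 alone had a promoter summit, 26 bp downstream of the start (listed as -26), at rank 27110. In the upstream zone of nlp-40 the full list of replicate 1 held 3 summits, while replicate 2 and the pooled list held 1 each, and the IDR list held none.

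Sites were present at some of the receptor genes of these peptides. At aex-2, which encodes the receptor of the NLP-40 peptide, a promoter summit 542 bp upstream (rank 1167) was accompanied by summits 1312 bp and 3756 bp upstream. The one at 1312 bp was at rank 130 of the IDR list, and its ranks were 222 and 102 in replicates 1 and 2. At pdfr-1, the receptor gene for both pdf peptides, summits lay 633 bp upstream at rank 2646 and 2032 bp upstream at rank 393. Conversely, gnrr-1, npr-11 and ntr-1, the receptor genes for the peptides of nlp-47, nlp-1 and ntc-1, had no summit in either window. Other pairs had sites at both partners, at a single partner or at neither. For nlp-12 the receptor gene ckr-1 also had an upstream summit (1320 bp, rank 4642), whereas ckr-2 had none. For flp-18 the receptor gene npr-5 had 3 summits, the strongest 2412 bp upstream at rank 935, whereas npr-1 and npr-4 had none. The pairs flp-10 with egl-6 and flp-21 with npr-1 had no summit at either partner, and flp-17 had one where egl-6 did not. The pairs were picked after the values were seen and are listed as values only.

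Over all 106 receptor genes, 14 had a promoter summit, or 13.2% (7.41 to 21.2), close to the 14.7% of all genes. Free upstream summits were present at 28, or 26.4% (18.3 to 35.9), against 7.44% of all protein-coding genes, a share not matched for room. Of these receptor genes 76 had 5 kb or more of upstream room, and among them 25, or 32.9%, had a free upstream summit, against 25.9% of all genes with that room. The strongest promoter sites were at aexr-3 (458 bp, rank 384), aex-2, npr-23 (114 bp, rank 1590, in an intron of vps-4), npr-18 (76 bp, rank 1748), frpr-9 (392 bp, rank 1770) and sprr-2 (29 bp, rank 2013).

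The machinery that makes and releases peptides had promoter summits at 10 of 23 genes, or 43.5% (23.2 to 65.5), against 14.7% of all protein-coding genes, and at 16 over both windows, or 69.6% (47.1 to 86.8), against 29.6%. The list is small and was drawn up with earlier results known. Among the enzymes these were egl-21 (157 bp, rank 2829), the carboxypeptidase that trims cut peptides, aex-5 (85 bp downstream, listed as -85, rank 4870), a proprotein convertase of the defecation program, and 2 genes of peptide amidation, pghm-1 (7 bp downstream, listed as -7, rank 4630) and pgal-1 (55 bp, rank 5797). A further amidation gene, pamn-1, had only a summit in the upstream zone (3013 bp, rank 4992). At sbt-1, which encodes the chaperone of the convertase EGL-3, the summit 182 bp upstream (rank 3899) was also in the promoter window of num-1.

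The other genes of this list with a promoter summit act in the maturation of dense-core vesicles around the GTPase RAB-2. That GTPase is encoded by unc-108, which had the strongest promoter site of the list (52 bp, rank 337, and ranks 405 and 295 in replicates 1 and 2). It was followed by rund-1 (314 bp, rank 1049), ric-19 (167 bp, rank 2384, shared with pmlr-1), tbc-8 (192 bp downstream, listed as -192, rank 3175, in a coding exon) and cccp-1 (75 bp, rank 5781). The convertase gene egl-3 and the vesicle release gene unc-31 had no promoter summit. At egl-3 there were summits 1097, 2041 and 4545 bp upstream, at ranks 2011, 2005 and 1682, and at unc-31 a summit 2248 bp upstream at rank 2179. A difference between peptide genes and this machinery was not tested.

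**Figure D4:**
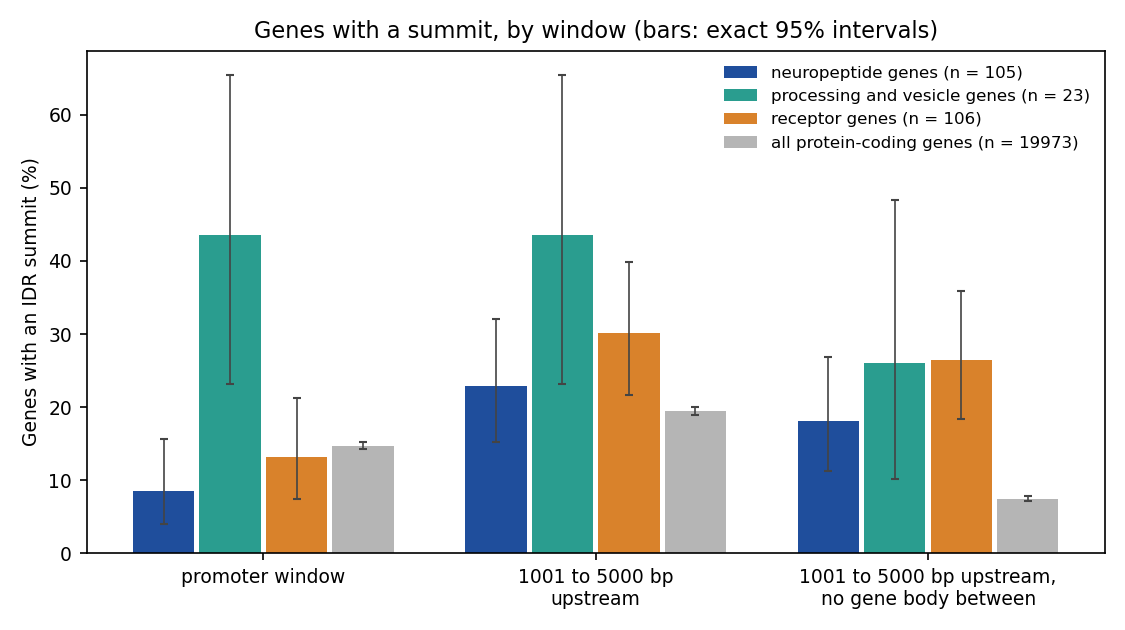
Share of genes with an IDR summit (y axis, percent) in 3 windows (x axis) for neuropeptide genes, processing and vesicle genes, receptor genes and all protein-coding genes, with exact 95% intervals. In the promoter window the shares are 8.57%, 43.5%, 13.2% and 14.7% in that order.

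The letters that paired-like homeodomain proteins are known to favour were found at few sites, both among neuropeptide genes and among all IDR summits. The word TAATTA was found within 50 bases of 3 of the 47 summits, or 6.38%, against 4.54% of all 6283 IDR summits. TAAT followed after 2 free bases by ATTA was found at 1, or 2.13%, against 0.366%, and with 3 free bases at none, against 0.621%. These words read the same on both strands, apart from the free bases, and TAATTA can overlap the spaced form. A match is a description and not a shown site, and a missing word says nothing of binding. The stretches with a word near an own start were both at nlp-7 (chrX:8591250-8591350 and chrX:8591948-8592048, plus strand, WBcel235), and they are shown with the words in capitals.
nlp-7, 1881 bp upstream: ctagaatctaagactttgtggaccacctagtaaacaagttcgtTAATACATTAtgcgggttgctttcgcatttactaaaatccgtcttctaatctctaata
nlp-7, 1183 bp upstream: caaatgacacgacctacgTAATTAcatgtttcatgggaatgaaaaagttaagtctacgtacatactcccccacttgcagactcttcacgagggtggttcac
The other matches to TAATTA were 1787 bp upstream of nlp-71 and 2566 bp upstream of nlp-41, both nearer to another gene.

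The word GAGAGA, searched on both strands, was found at 2 of the 47 summits, or 4.26%, against 20.8% of all IDR summits and 22.3% of the 3987 IDR summits outside protein-coding genes. The GC content of the same stretches had a median of 36.6% at the summits of neuropeptide genes, against 42.6% at all IDR summits and 42.6% at those outside genes. None of the promoter stretches printed earlier held one of these words.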

How the data were processed

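Anti-GFP ChIP-seq of 2 biological replicates was deposited as 8 peak lists, of which the 4 on ce11 were used. No coordinates were converted. The deposited lists give a signal per peak, a q-value as −log10 and the summit offset, and the authors pooled the replicates for the list that passed their IDR threshold, per the file names and labels. The sources used here do not give the aligner, peak caller, IDR threshold or depth. Ensembl release 115 gave the gene models for WBcel235, which is ce11, and sequence was read from the RefSeq copy of that assembly.

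Positions are 1-based. Summits were assigned to gene starts in Python 3.11.15, and intervals were computed with SciPy 1.17.1. The assignment was tested on simulated data, where 200 of 200 planted summits were placed correctly over 19973 genes. The value in a replicate is that of the overlapping peak (at least 1 bp) with the nearest summit. A free upstream summit has no other protein-coding gene body between it and the start. No test was made, and counts are given beside those of all protein-coding genes. Members, gene lists and words were chosen with earlier results of these data known. Named were all members with a promoter summit, the 15 with the strongest upstream summits, role-list members with a summit, pdf-1, pdf-2, ntc-1, nlp-40, all processing genes with a promoter summit and the 6 receptor genes with the strongest. All 23 symbols of the processing list were matched. Alternatives were other windows, thresholds, starts, overlap and assignment rules, each replicate alone and a wider word search. Genes of other biotypes at summits and the count of free upstream summits were added after the data were examined.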

Additional observations from a re-analysis of the deposited data

How the results depend on the processing

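Of 45 recounts (5 gene counts under 9 alternatives), 33 stayed within 1.5 times the reported count. With the stronger 50% of IDR peaks, neuropeptide genes with a promoter, an upstream or any summit numbered 4, 15 and 16. These are 3.81%, 14.3% and 15.2%, against 8.6%, 11.3% and 18.3% of all genes. Processing and receptor genes with a promoter summit numbered 4 and 8, or 17.4% and 7.55%, against 8.6%. With the pooled list before the threshold the same counts were 38, 52, 61, 16 and 46. Their shares were 36.2%, 49.5%, 58.1%, 69.6% and 43.4%, against 33.3%, 47%, 54.7%, 33.3% and 33.3% of all genes. A window from 2000 bp upstream gave 17 neuropeptide genes, or 16.2%, against 19.5% of all genes. A window from 500 bp upstream to the start gave 7 receptor genes, or 6.6%, against 10.6%. Leaving out replicate 1 or replicate 2 gave 7 to 11, 23 to 25 and 27 to 27 neuropeptide genes, 8 to 9 processing genes and 14 to 16 receptor genes. Without replicate 1 the promoter shares of these lists were 6.67%, 34.8% and 13.2%, against 14.3% of all genes. Without replicate 2 they were 10.5%, 39.1% and 15.1%, against 15%. The upstream shares of neuropeptide genes were 23.8% and 21.9%, each against 19.4%, and those over both windows 25.7% each, against 29% and 30%. The share of neuropeptide genes with a promoter summit was below that of all genes in 8 of 9 alternatives, the exception being the pooled list (36.2% against 33.3%). The upstream share was above that of all genes in all 9, most widely with each summit given to its nearest start (16.2% against 5.64%). Under that rule a summit counts only for the gene with the nearest start. Neuropeptide genes have more upstream room (median 2914 bp against 936 bp), and how far room accounts for this gap was not tested. Within 100 bases of summits the word TAATTA was found at 6 summits, or 12.8%, against 8.5% of all IDR summits. The form spaced by 2 free bases was at 2, or 4.26%, against 0.955%. The word GAGAGA was at 6, or 12.8%, against 32%. No paired analysis was possible because there was a single group. The depth of the libraries is unknown, so a missing summit may lie below detection, and annotated starts can lie downstream of the true start because worm transcripts are often trans-spliced.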

Other observations

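Annotated piRNA genes, which encode the 21U-RNAs of the germline, lay within 100 bp of 3 of the 47 summits at neuropeptide genes, or 6.38%, against 33 of all 6283 IDR summits, or 0.525%. The sites were those of nlp-47 at 789 bp (100 bp from 21ur-6283), nlp-35 at 1955 bp (98 bp from 21ur-14552) and flp-17 at 4129 bp (29 bp from 21ur-15016), and all 3 peptide genes are on chromosome IV. Short genes of the class ncRNA lay within 100 bp of 3 summits, or 6.38%, against 10.4%. No snoRNA gene was near a summit of the set, against 1.43% of all IDR summits. The piRNA share over IDR summits of chromosome IV alone was not counted, so these shares are not matched for chromosome. These counts are small, were made after the data were examined, and no explanation of them was tested.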
